A study of Homo sapiens with 60 samples.

Results

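MYC and 44 genes of ribosome biogenesis were followed in human SW1783 astrocytoma cells exposed to herbal extracts. The 45 genes were chosen by name (MYC, RNA polymerase I subunits and factors, and nucleolar processing factors), and each symbol was matched to its Ensembl identifier in the count table. All 45 were found among the 60675 genes of the table, and all 45 passed the filter on low counts, as did 17676 genes in all.

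The experiment compared ethanol extracts of single herbs and of herbal formulas with a solvent control, by RNA sequencing after 24 h. Astragali Radix was given at 8.8 (low), 44 (medium) and 220 µg/mL (high), doses set from its own inhibitory concentration. Cinnamomi Cortex and 4 formulas (Samul-tang, Sagunja-tang, Sibjeondaebo-tang and Palmul-tang) were given at 20, 100 and 500 µg/mL, with 3 libraries at each dose. Rehmanniae Radix Preparata was given at the same 3 doses with 1 library each, and the vehicle (DMSO) had 3 libraries. In traditional use, the Palmul-tang recipe holds both Samul-tang and Sagunja-tang. Sibjeondaebo-tang is Palmul-tang with Astragali Radix and Cinnamomi Cortex besides.

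The labels give 0.1% DMSO while the text on the whole series gives 2%. The vehicle libraries carry a label code that no extract library shares, so an effect of that code and an effect of having any extract cannot be told apart. All titles, of vehicle and extract libraries alike, carry the same prefix, BatchF. The codes also differ between sets of extracts, and what they mark is not stated. Nothing states that replicates were separate cultures, so p-values measure the spread between libraries, which may be technical. The libraries held 19793387 to 37152410 counts, of which the 45 genes took 0.526 to 0.531% in the vehicle. SW1783 cells had VIM, CD44, SOX9, GJA1 and SLC1A3 of the astrocyte markers, with NES at 2.16 to 16.6 CPM (TMM-scaled counts, set to a common library size). GFAP, S100B, AQP4 and ALDH1L1 did not exceed 0.321 CPM in any library, and SLC1A2 did not exceed 0.44 CPM. Markers listed for other cell types were present too, with COL1A1 at 1305 to 14400, COL1A2 at 926 to 5413 and CD68 at 91.9 to 265 CPM. The rest of that list did not exceed 21.2 CPM.

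Replicates 1 and 2 of the Astragali Radix low dose stood apart. Transcript length and GC content accounted for 15.6% and 38.3% of the variance of their log2 deviations from the mean of all 60 libraries. The other 58 libraries had 0.0913 to 3.79%. Mitochondrial genes took 1.38% of the counts of replicate 2, 4.97 to 7.18% in the other extract libraries, replicate 1 among them, and 7.55 to 8.04% in the vehicle. Every extract library thus lay below the vehicle in this share, and its part in the changes of the members was not tested. Because all groups were fitted together, the spread of this pair entered every test. The counts over all 45 members and the counts by role are therefore also given without them.

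Cells make ribosomes in the nucleolus, where RNA polymerase I transcribes the precursor of the ribosomal RNAs. Small nucleolar ribonucleoproteins (snoRNPs) modify and help fold that precursor, the small subunit processome cuts and assembles the part that becomes the small subunit, and a separate set of factors builds the large subunit. MYC is a transcription factor that binds E-box sequences with its partner MAX, and many genes of this pathway are known MYC targets in proliferating cells, which include tumour cells of glial origin.

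In the vehicle the members covered a wide range of levels per transcript length. NPM1, the nucleolar chaperone nucleophosmin, was the most abundant at 851 ± 14.4 CPM per kilobase (SD, n = 3). Nucleolin, encoded by NCL, followed at 126 ± 1.17 CPM per kilobase (SD, n = 3), and the methyltransferase FBL had 91.6 ± 1.55 (SD, n = 3). MYC ranked 18 of 45 with 25.2 ± 1.45 CPM per kilobase (SD, n = 3). The lowest was WDR12, a large subunit factor, with 4.41 ± 0.0376 CPM per kilobase (SD, n = 3). Length was that of the longest annotated transcript of each gene (8100 bases for WDR12), so these ranks depend on that choice. Before division by length WDR12 averaged 35.7 CPM and LYAR 17 CPM.

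MYC (ENSG00000136997, chromosome 8, 127735434 to 127741434 on GRCh38) was high at a single extract and dose. It had 186, 187 and 163 CPM in the Astragali Radix high dose, against 61, 55.7 and 62.1 CPM in the vehicle. All 3 treated libraries lay above all 3 vehicle libraries. The change was 3-fold (log2 1.59 ± 0.06 SE, edgeR quasi-likelihood test with Benjamini-Hochberg adjustment over all genes tested, adjusted p = 4.55e-26). Over the dose series of this extract MYC averaged 59.6 ± 3.43 CPM in the vehicle, 54.4 ± 7.05 at the low dose, 62.9 ± 2.1 at the medium dose and 179 ± 13.4 at the high dose (SD, n = 3 each). The low and medium doses overlapped the vehicle, and the high dose lay above all other groups. CPM is a share of each library, so a change in the RNA of a few cells and in that of every cell cannot be told apart here or in any later result.

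Outside that dose MYC stayed close to the vehicle, with log2 changes between -0.19 and 0.09 in the other 17 groups. In the 45 libraries of the other 5 extracts with replicates, the lowest MYC level was 49.4, the median 55 and the highest 67.6 CPM, and 26 of the 45 lay below all vehicle libraries. Cinnamomi Cortex averaged 53.4 ± 0.503, 52.3 ± 1.55 and 58 ± 1.66 CPM at the low, medium and high dose (SD, n = 3 each). Sagunja-tang averaged 52.5 ± 2.95, 53.2 ± 2.26 and 52.9 ± 2.2 CPM in the same order (SD, n = 3 each). These groups included the 3 in which MYC was called lower. The calls were at the medium dose of Cinnamomi Cortex (log2 -0.19, edgeR adjusted p = 0.0399) and at the low and high doses of Sagunja-tang (log2 -0.18, adjusted p = 0.0461, and log2 -0.17, adjusted p = 0.0455). All 3 calls were lost with upper quartile scaling (adjusted p = 0.0634, 0.0702 and 0.0773) and held without the 2 libraries that stood apart. In the same order they were lost with the length and GC correction (adjusted p = 0.136, 0.216 and 0.117) and with no filter on low counts (adjusted p = 0.266, 0.307 and 0.287). Each was also lost without replicate 1 or replicate 3 of the vehicle (log2 -0.13 to -0.17, edgeR adjusted p = 0.158 to 0.204). With all libraries the 3 calls held with DESeq2 (adjusted p = 0.0149, 0.0185 and 0.0202). Samul-tang averaged 54.1 ± 2.01, 54.4 ± 1.8 and 57 ± 3.33 CPM from low to high dose (SD, n = 3 each). Palmul-tang averaged 54 ± 0.928, 56.6 ± 1.6 and 63.4 ± 0.377 CPM (SD, n = 3 each). Sibjeondaebo-tang averaged 54.3 ± 2.13, 59.6 ± 1.19 and 62.6 ± 4.34 CPM (SD, n = 3 each). In the last 2 formulas the high dose lay above the low dose in every library, a difference taken up with the dose comparisons.

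**Figure D1:**
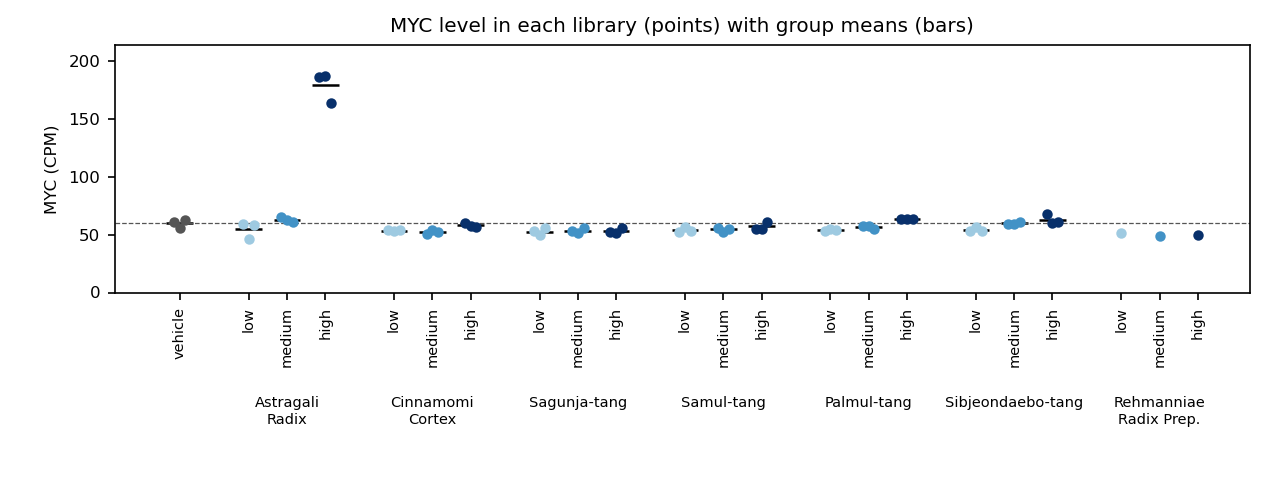
MYC level in CPM in each library (points), with the group mean (bar) and the vehicle mean (dashed line), for the vehicle and each extract from low to high dose. The 3 libraries of the Astragali Radix high dose sit between 163 and 187 CPM, and all other libraries lie at or under 67.6 CPM.

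The Astragali Radix high dose moved the ribosome biogenesis genes in both directions. Of the 45 genes, 10 were higher and 21 lower than in the vehicle, 31 in all. Of all 17676 genes tested 32.6% were called higher, 35.6% lower and 68.2% in either direction, so the share of members called is close to that of all genes, and the counts by role below stand against the same shares. The median log2 change of the members was -0.09, against -0.06 over all genes tested, and the median size of change was 0.31, against 0.61. As a summed level, the 45 genes took 0.404, 0.409 and 0.411% of all counts at the high dose, against 0.526, 0.531 and 0.526% in the vehicle, with no overlap. On the TMM scale the sums were 5383, 5410 and 5260 CPM at the high dose, against 5504, 5490 and 5479 CPM in the vehicle, so the size of this difference depends on the scaling. NPM1 was the largest part of these sums, with 1825, 1828 and 1637 CPM at the high dose, against 1524, 1475 and 1487 CPM in the vehicle. Without the 2 libraries that stood apart, 12 members were higher and 23 lower, against 34.8% and 37.6% of all genes (72.3% in either direction). By role that fit had 3 higher and 2 lower of 6 RNA polymerase I genes, 1 and 3 of 4 snoRNP genes and 3 and 5 of 12 processome genes. It had 1 and 1 of 3 late small subunit factors, 2 and 6 of 12 large subunit factors and 1 and 6 of 7 nucleolar proteins. Upper quartile scaling lowered the median of all genes to -0.20, and with it 5 members were higher and 25 lower. The share of all genes called with that scaling is not given. UBTF, PNO1, NPM1, UTP4 and DDX18 then lost their calls, and no called member changed direction under any scaling.

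RNA polymerase I genes split, with 3 of 6 higher and 1 lower. RRN3, the factor that brings RNA polymerase I to the ribosomal promoter, had 118, 116 and 114 CPM at the high dose, against 62.8, 66.5 and 63.6 CPM in the vehicle (log2 0.85 ± 0.05 SE, edgeR adjusted p = 1.08e-18). POLR1D, a subunit shared with RNA polymerase III, had 128, 127 and 119 CPM, against 73.3, 69.4 and 67.1 CPM (log2 0.83 ± 0.08, adjusted p = 3.98e-13). UBTF, which binds ribosomal DNA, had 116, 113 and 106 CPM, against 85.5, 88.1 and 84.9 CPM in the vehicle (log2 0.37 ± 0.14, adjusted p = 0.0135). These 3 genes were higher in each treated library than in any vehicle library, while the call on UBTF was lost without replicate 1 of the high dose. POLR1A, the largest catalytic subunit, went the other way with 47, 46.5 and 57 CPM at the high dose, against 111, 107 and 113 CPM in the vehicle (log2 -1.14 ± 0.13, adjusted p = 4.67e-11). POLR1B, the other subunit of the catalytic core, and POLR1C, shared with RNA polymerase III, were not called, and their libraries overlapped those of the vehicle. RRN3 lies at 15060022 to 15094317 on chromosome 16, has 2 named pseudogenes and overlaps PDXDC1 on the opposite strand. The strand setting of the counting is not stated, so its reads may be shared.

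Of the 4 snoRNP genes, 2 were called lower and none higher. NOP56 and NOP58 are the paired core proteins of the box C/D snoRNPs. NOP56 had 124, 123 and 123 CPM at the high dose, against 141, 153 and 149 CPM in the vehicle (log2 -0.27 ± 0.05, edgeR adjusted p = 2.08e-05). NOP58 had 48.7, 54 and 47.4 CPM, against 60.8, 62.5 and 59.3 CPM (log2 -0.28 ± 0.07, adjusted p = 0.000202). Both were lower in every treated library. FBL, the methyltransferase of the same particles, and DKC1, the pseudouridine synthase of the box H/ACA particles, had log2 changes of 0.13 and -0.09 that were not called. FBL still lay above the vehicle in every treated library, with 145, 142 and 133 CPM against 128, 131 and 126 CPM. Without the 2 libraries that stood apart, 1 of the 4 genes was called higher and 3 lower.

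The small subunit processome held the largest fall of all members. UTP20, a long scaffold protein of this complex, had 15.3, 14.6 and 16.6 CPM at the high dose, against 76.1, 73.2 and 74.5 CPM in the vehicle. Its level was thus 0.207 of that in the vehicle, with no overlap (log2 -2.27 ± 0.12, edgeR adjusted p = 1.96e-21). Fellow processome proteins moved less. NOP14 had 32.1, 30.5 and 33.6 CPM, against 54.2, 55.6 and 57.4 CPM in the vehicle (log2 -0.80 ± 0.08, adjusted p = 1.35e-11). HEATR1, a subunit that also supports ribosomal RNA transcription, had 62.8, 64.7 and 73.4 CPM, against 118, 117 and 112 CPM (log2 -0.79 ± 0.13, adjusted p = 5.57e-07). Among 12 genes of the processome, 5 fell and 3 rose. UTP18, a WD-repeat subunit, rose to 61.4, 66.7 and 63 CPM at the high dose, against 40.3, 45.2 and 42.2 CPM in the vehicle (log2 0.58 ± 0.07, adjusted p = 1.05e-09). The helicase DDX10 (log2 0.32) and UTP4 (log2 0.20) were the other members that rose, and WDR75 (log2 -0.25) and UTP15 (log2 -0.28) the other members that fell. The call on UTP4 was lost without replicate 2 of the high dose or of the vehicle, and that on UTP15 without replicate 1 of the high dose. WDR43, UTP3, NOC4L and RRP9 were within 0.08 of 0 on the log2 scale and were not called.

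The promoters of UTP20 and UTP18 are shown because these genes moved in opposite directions beside a MYC that rose, while both hold the E-box CACGTG, in capitals, within 250 bases upstream of the RefSeq start (GRCh38.p14, plus strand, 5′ to 3′). The windows are chr12:101279855-101280104 for UTP20 and chr17:51260296-51260545 for UTP18, and the motif begins 10 and 89 bases upstream of the start.
UTP20: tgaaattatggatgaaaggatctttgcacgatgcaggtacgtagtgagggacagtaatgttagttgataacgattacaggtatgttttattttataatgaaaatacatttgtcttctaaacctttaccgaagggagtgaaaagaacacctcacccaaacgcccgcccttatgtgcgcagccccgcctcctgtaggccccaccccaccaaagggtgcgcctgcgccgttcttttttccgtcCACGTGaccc
UTP18: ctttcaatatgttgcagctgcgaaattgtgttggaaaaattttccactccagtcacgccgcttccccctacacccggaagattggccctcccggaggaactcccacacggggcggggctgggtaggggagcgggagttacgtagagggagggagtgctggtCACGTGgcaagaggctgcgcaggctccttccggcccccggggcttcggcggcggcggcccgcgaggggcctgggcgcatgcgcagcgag

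CACGTG reads the same on both strands. It was found in 6 of the 38 members that have a promoter in the table (15.8%), in 10.9% of 12049 tested genes with one and in 6.34% of all 35116 promoters. For members and tested genes with several starts, the start with the most motifs was taken. The share of all promoters counts every start, so it is not the same measure. Of the 6 holders, UTP20, LYAR, EBNA1BP2 and DDX21 fell at the high dose, and UTP18 and UTP4 rose. Of the 32 members without the motif in this window, 13 fell and 6 rose. A match of letters is a description and says nothing of binding.

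Of the late small subunit factors, PNO1 rose and RRP12 fell. The RNA-binding factor PNO1 had 41.3, 44.1 and 44.9 CPM at the high dose, against 35.2, 34.7 and 33.6 CPM in the vehicle (log2 0.33 ± 0.09, edgeR adjusted p = 0.00143). RRP12, an export and maturation factor, had 66.8, 69.4 and 72.4 CPM, against 91.5, 96.8 and 92.6 CPM (log2 -0.43 ± 0.12, adjusted p = 0.00177). Neither gene overlapped between the groups, while BYSL (log2 0.05) did and was not called.

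Of the 12 large subunit factors, 6 fell and 1 rose. RRS1, which helps bring a ribosomal RNA particle into the large subunit, had 20.2, 21.8 and 21.9 CPM at the high dose, against 48.3, 47.9 and 47.3 CPM in the vehicle (log2 -1.17 ± 0.08, edgeR adjusted p = 1.49e-17). NOC3L had 25.3, 26 and 20.9 CPM, against 38.1, 36.6 and 38.3 CPM (log2 -0.64 ± 0.08, adjusted p = 2.43e-10). NOC2L had 144, 141 and 134 CPM, against 214, 201 and 211 CPM in the vehicle (log2 -0.58 ± 0.14, adjusted p = 0.00046). No treated library of these 3 genes reached the vehicle. WDR12, which acts in a complex with PES1 and BOP1, had 25.2, 25.2 and 26.5 CPM, against 35.4, 35.8 and 36 CPM in the vehicle (log2 -0.48 ± 0.07, adjusted p = 4.8e-08). Its partners were not called: PES1 had a log2 change of -0.06 (adjusted p = 0.678) and BOP1 of 0.25 (adjusted p = 0.135). Neither overlapped the vehicle, however. BOP1 had 115, 107 and 96.4 CPM, against 87.4, 92.5 and 87.9 CPM in the vehicle. PES1 had 161, 168 and 161 CPM, against 172, 169 and 170 CPM. Without the 2 libraries that stood apart, 2 of the 12 factors were called higher. EBNA1BP2 and the methyltransferase NOP2 fell by 0.37 and 0.33 on the log2 scale. The helicase DDX18 rose (log2 0.16 ± 0.07, adjusted p = 0.0356), a call lost without replicate 2 or 3 of the high dose and without replicate 1 or 3 of the vehicle. NIP7, NOP16 and DDX56 overlapped the vehicle and were not called.

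All 7 abundant or associated nucleolar proteins were called, 6 of them lower. MYBBP1A, a nucleolar co-regulator of transcription, had 50, 53.8 and 56.5 CPM at the high dose, against 132, 141 and 133 CPM in the vehicle (log2 -1.34 ± 0.14, edgeR adjusted p = 6.75e-12). LYAR, a nucleolar zinc-finger protein, had 7.99, 6.9 and 5.73 CPM, against 16.7, 17.1 and 17.2 CPM (log2 -1.29 ± 0.10, adjusted p = 9.07e-16). GNL3, or nucleostemin, had 70.6, 70.8 and 77.7 CPM, against 100, 100 and 99.8 CPM in the vehicle (log2 -0.46 ± 0.06, adjusted p = 8.82e-10). In each of these genes the treated libraries lay below the vehicle. NCL had 376, 367 and 395 CPM, against 504, 514 and 508 CPM in the vehicle (log2 -0.42 ± 0.07, adjusted p = 2.33e-06). NOLC1, a chaperone of snoRNPs, fell by 0.31 and the helicase DDX21 by 0.23 on the log2 scale. NPM1 was the exception: it had 1825, 1828 and 1637 CPM, against 1524, 1475 and 1487 CPM in the vehicle, with every treated library higher (log2 0.24 ± 0.06, adjusted p = 0.000438). NPM1 has 45 named pseudogenes, so part of its counts is uncertain, and MYBBP1A overlaps SPNS2 and GNL3 overlaps PBRM1 and GLT8D1 on the opposite strand.

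**Figure D2:**
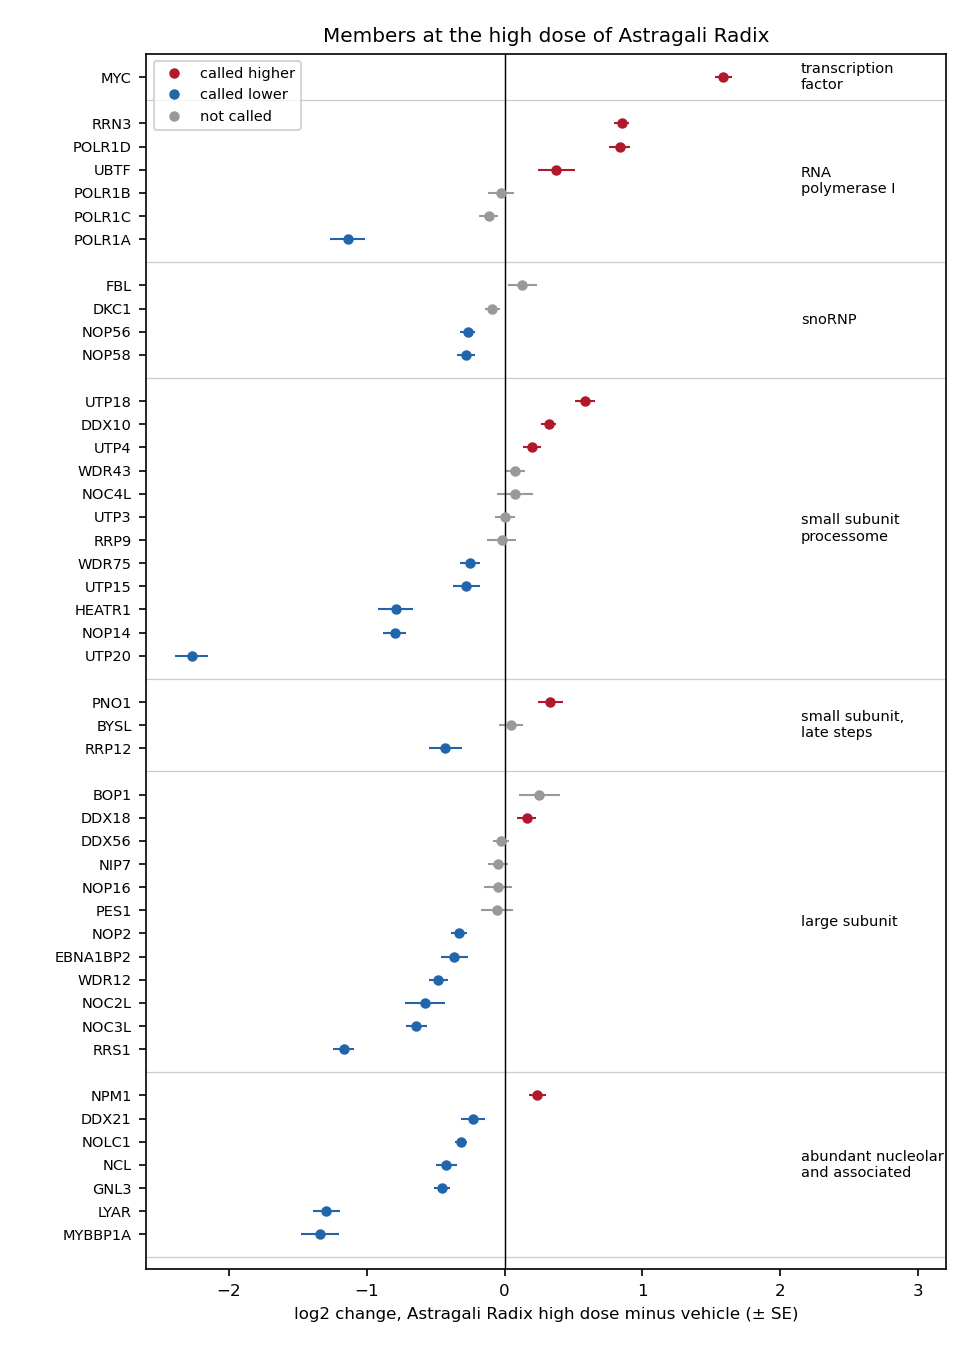
Log2 change of each of the 45 genes at the Astragali Radix high dose minus the vehicle (x axis), grouped by role, with the standard error as a bar and 3 libraries in each group. Red points were called higher, blue points lower and grey points were not called; MYC is at 1.59 and UTP20 at -2.27.

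The medium dose of Astragali Radix gave a different picture. Of the 45 members, 4 were higher than in the vehicle and 0 lower, while 7.75% of all genes tested were called higher, 8.81% lower and 16.6% in either direction. UTP18 had 56.1, 54.1 and 57.8 CPM at the medium dose, against 40.3, 45.2 and 42.2 CPM in the vehicle (log2 0.40 ± 0.07, edgeR adjusted p = 5.27e-05). POLR1B had 32.2, 31.9 and 31.6 CPM, against 24.5, 25.2 and 26.7 CPM in the vehicle (log2 0.33 ± 0.09, adjusted p = 0.00859). NOC3L had 46.3, 47.6 and 45.8 CPM, against 38.1, 36.6 and 38.3 CPM in the vehicle (log2 0.30 ± 0.07, adjusted p = 0.00157). RRN3 was the other gene called (log2 0.17, adjusted p = 0.0226), and none of the 4 overlapped the vehicle. Thus NOC3L was higher at 44 µg/mL and lower at 220 µg/mL, both called against the same vehicle libraries. POLR1B was called at the medium and not at the high dose, and the difference between the 2 doses was not tested. Without the 2 libraries that stood apart, 17 members were higher and 4 lower, and the 4 were UBTF, MYBBP1A, PES1 and NOC2L. Of all genes, 18.4% were then called higher and 15.5% lower (33.8% in either direction). Leaving out replicate 1 of the vehicle left 2 calls.

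At the low dose the result rests on the libraries that stood apart. With all 3 libraries, 14 members were called higher and 7 lower, and 40.7% of all genes were called. In replicates 1, 2 and 3 BOP1 had 134, 275 and 94.2 CPM, against 87.4, 92.5 and 87.9 CPM in the vehicle. HEATR1 had 55.7, 63 and 129 CPM, against 118, 117 and 112 CPM in the vehicle. UTP20 had 36.4, 54.3 and 81.7 CPM, against 76.1, 73.2 and 74.5 CPM. In each, replicate 3 lay close to the vehicle and the other replicates far from it. Across the 45 members the log2 change and transcript length had a Spearman correlation of -0.58, against -0.32 over 17552 genes, so long members such as HEATR1 and UTP20 were low and short members such as FBL were high. Without replicates 1 and 2 only replicate 3 is left, and it is assumed to vary as other groups do. In that fit 6 members were higher and 6 lower (15.9% of all genes called), and 13 of the 21 calls changed sign. UTP18 and WDR43 kept their direction: UTP18 had 70.2, 70.9 and 51.4 CPM, against 40.3, 45.2 and 42.2 CPM in the vehicle (log2 0.59, and 0.29 without the pair). WDR43 had 58.9, 46.1 and 70.1 CPM, against 80.5, 82.6 and 86.9 CPM (log2 -0.51, and -0.24 without the pair).

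The other 5 extracts with replicates gave small changes in the members. All 15 comparisons share the 3 vehicle libraries, so their agreement is not independent. The members' summed share of counts lay between 0.467 and 0.521% in these libraries and in those of Rehmanniae Radix Preparata, against 0.526 to 0.531% in the vehicle. On the TMM scale the sum was 4485 to 5231 CPM, against 5479 to 5504 CPM in the vehicle. NPM1 was again its largest part, at 1073 to 1397 CPM, against 1475 to 1524 CPM in the vehicle. Of the 45 genes, 21 were below the vehicle in all 15 groups, 4 above it in all 15 and 20 on both sides, where 19.2%, 19.4% and 61.4% of all genes tested did the same. In at least 1 group 23 were called lower, 3 were called higher and 19 were called in none of the 15, against 22.5%, 22% and 56.5% of all genes. Leaving the pair of Astragali Radix libraries out, 34 were called lower and 9 higher at least once and 4 in no group, against 34.4%, 39% and 31.6% of all genes. Many calls at these doses were lost when 1 library was left out of the fit. Each extract's counts are therefore followed by the range over the 6 such fits (3 without a vehicle library and 3 without a library of that dose). The share of all genes called in those fits is not given, so a smaller count there is no result about the members.

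At the Cinnamomi Cortex low dose 1 of 45 members was higher and 6 lower, where 6.13% of all genes were called higher, 7.12% lower and 13.2% in either direction. The medium dose had 1 higher and 10 lower, against 5.86%, 7.17% and 13% of all genes. The high dose had 2 higher and 5 lower, against 7.7%, 8.56% and 16.3% of all genes. NCL, NOLC1, NPM1 and WDR43 were called lower at each dose, and UTP18 was called higher at each dose. Leaving out 1 library at a time left 3 to 4, 2 to 7 and 3 to 6 members called from low to high dose. UTP18 kept its call in every such fit, and WDR43 in all but that of the high dose without replicate 3 of the vehicle. NOLC1 kept it in 2, 1 and 0 of 6 fits, NCL in 1, 3 and 1, and NPM1 in 1, 2 and 6. Without the libraries that stood apart, Cinnamomi Cortex had 4 and 21, 3 and 23, and 6 and 18 members higher and lower from low to high dose. The shares of all genes were then 15.2% and 14.3%, 15.5% and 14.3%, and 16.9% and 16% (29.5%, 29.8% and 32.8% in either direction).

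At the Sagunja-tang low dose 3 of 45 members were higher and 9 lower, where 6.03% of all genes were called higher, 8.03% lower and 14.1% in either direction. The medium dose had 2 higher and 7 lower, against 6.16%, 7.31% and 13.5% of all genes. The high dose had 1 higher and 23 lower, against 11.2%, 11.6% and 22.7% of all genes. LYAR, NCL, NOP14, NPM1, PES1, UTP3 and WDR43 were called lower at each dose, and UTP18 higher at each. Leaving out 1 library at a time left 4 to 6, 4 to 8 and 17 to 20 members called from low to high dose. WDR43 and UTP18 kept their calls in every such fit. At the low dose NCL, NOP14 and NPM1 lost theirs in each of the 6 fits, LYAR and UTP3 in 5 and PES1 in 1. At the medium dose LYAR lost its call in 6, NOP14 and UTP3 in 2 and PES1 in 1. At the high dose all 8 genes kept theirs. When the pair was left out, Sagunja-tang had 5 and 22, 4 and 24, and 4 and 32 members higher and lower from low to high dose. The shares of all genes were then 15.7% and 15.4%, 15.9% and 14.8%, and 20.3% and 18.9% (31.1%, 30.8% and 39.2% in either direction).

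At the Samul-tang low dose 1 of 45 members was higher and 9 lower, where 4.96% of all genes were called higher, 6.37% lower and 11.3% in either direction. The medium dose had 1 higher and 8 lower, against 5.19%, 6.88% and 12.1% of all genes. The high dose had 2 higher and 8 lower, against 9.37%, 10.3% and 19.7% of all genes. LYAR, NCL, NOLC1, NPM1, PES1 and WDR43 were called lower at all 3 doses, with UTP18 higher at all 3. Leaving out 1 library at a time left 4 to 6, 3 to 5 and 7 to 10 members called from low to high dose. WDR43 kept its call in every such fit, and UTP18 and LYAR in all but 1 each, at the low dose. NCL kept it in 1, 1 and 6 of 6 fits, NPM1 in 1, 0 and 6, NOLC1 in 5, 0 and 5, and PES1 in 0, 0 and 4. With that pair left out, Samul-tang had 5 and 19, 6 and 22, and 6 and 20 members higher and lower from low to high dose. The shares of all genes were then 14.4% and 13.4%, 14.9% and 13.9%, and 18.8% and 16.9% (27.9%, 28.8% and 35.7% in either direction).

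At the Palmul-tang low dose 2 of 45 members were higher and 8 lower, where 4.27% of all genes were called higher, 5.57% lower and 9.84% in either direction. The medium dose had 1 higher and 9 lower, against 4.44%, 5.75% and 10.2% of all genes. The high dose had 2 higher and 12 lower, against 10%, 10.2% and 20.3% of all genes. NCL, NOLC1, NPM1, RRS1 and WDR43 were called lower at all 3 doses, and NOC3L, a large subunit factor, higher at all 3. With 1 library left out at a time, 2 to 4, 3 to 7 and 6 to 11 members were called from low to high dose. WDR43 kept its call in every such fit. NCL kept it in 1, 5 and 6 of 6 fits, NPM1 in 1, 0 and 6, NOLC1 in 0, 3 and 2, RRS1 in 0, 2 and 4, and NOC3L in 6, 0 and 4. Without the libraries that stood apart, Palmul-tang had 3 and 25, 5 and 24, and 6 and 26 members higher and lower from low to high dose. The shares of all genes were then 13% and 12.9%, 13.3% and 13%, and 19.6% and 16.8% (25.9%, 26.3% and 36.4% in either direction).

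At the Sibjeondaebo-tang low dose 0 of 45 members were higher and 9 lower, where 4.15% of all genes were called higher, 5.47% lower and 9.61% in either direction. The medium dose had 1 higher and 2 lower, against 2.31%, 3.45% and 5.76% of all genes. The high dose had 1 higher and 7 lower, against 11.2%, 11.9% and 23.1% of all genes. LYAR and WDR43 were called lower at all 3 doses, and UTP18 was called higher at the medium and high doses. With 1 library left out at a time, 4 to 10, 0 to 2 and 4 to 7 members were called from low to high dose. WDR43 kept its call in 5, 2 and 4 of 6 fits and LYAR in 3, 1 and 6, while UTP18 kept it in 2 at the medium and 6 at the high dose. Leaving out the libraries that stood apart, Sibjeondaebo-tang had 4 and 27, 3 and 12, and 5 and 14 members higher and lower from low to high dose. The shares of all genes were then 12.6% and 13.1%, 10.4% and 9.77%, and 20.6% and 17.8% (25.8%, 20.2% and 38.4% in either direction). At the Sibjeondaebo-tang high dose with all libraries, the share of members called, 8 of 45, was below that of all genes. With upper quartile scaling the counts higher and lower were 3 and 3 at the Cinnamomi Cortex high dose and 3 and 6 at the Sagunja-tang medium dose. They were 1 and 3 at the Samul-tang medium dose and 2 and 3 at the Palmul-tang low dose. The shares of all genes called with that scaling are not given, so these counts are no result about the members.

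**Figure D3:**
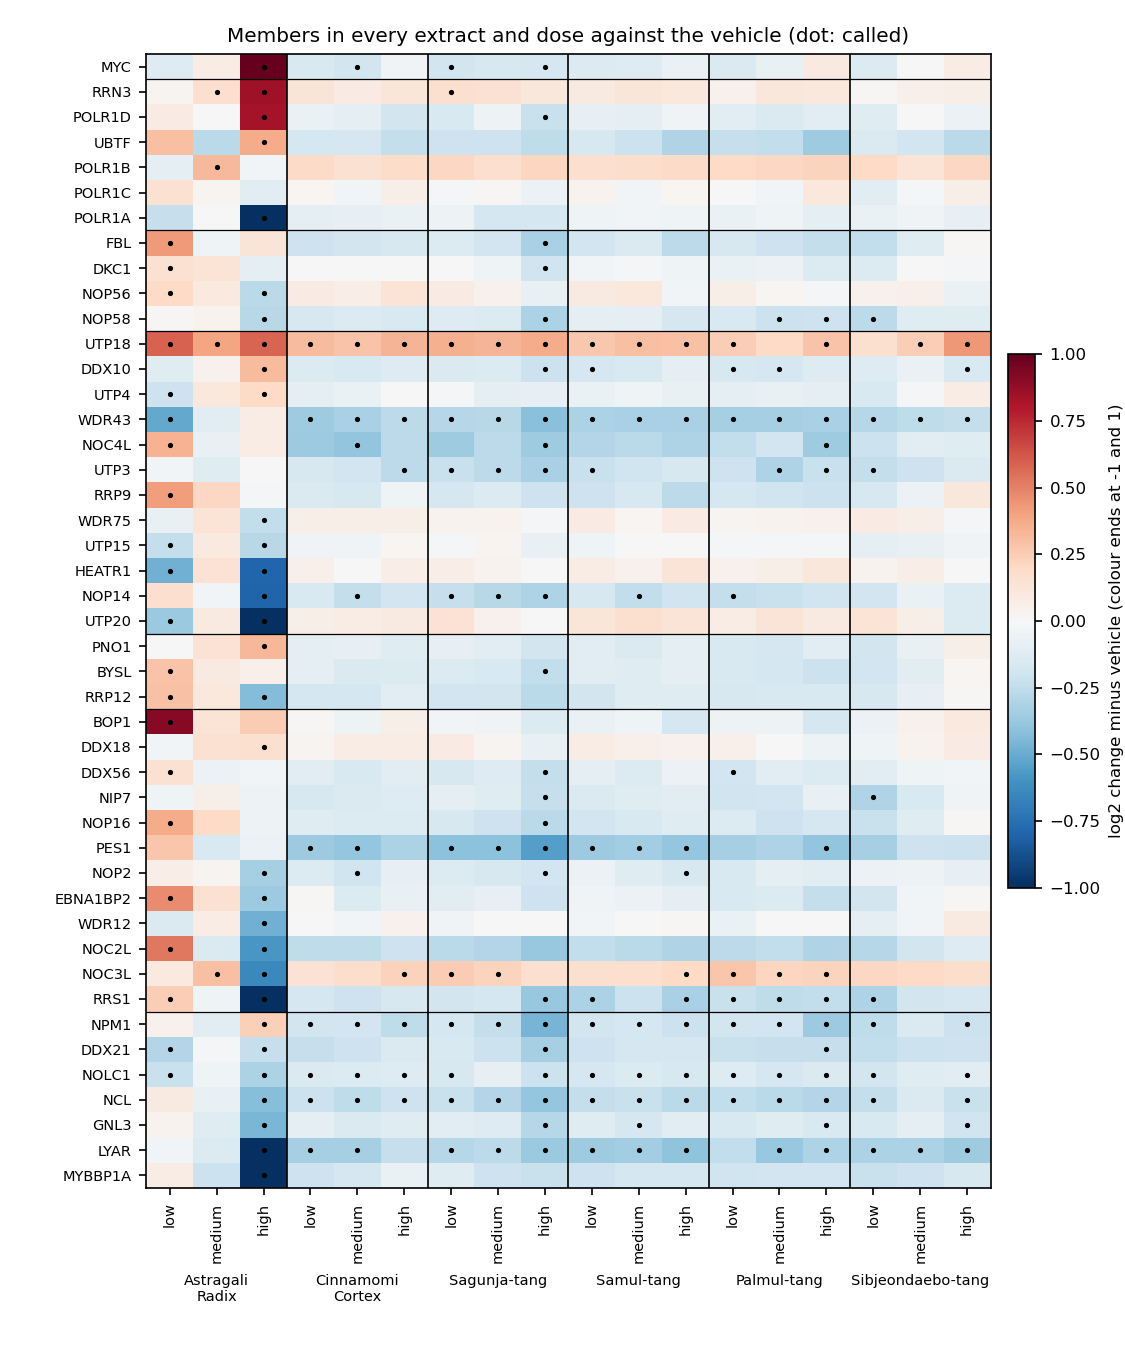
Log2 change of each of the 45 genes (rows, by role) in the 18 extract and dose groups minus the vehicle (columns), as colour that ends at -1 and 1, with a dot where the gene was called. The UTP18 row is red in all columns and the WDR43, NCL, NPM1 and LYAR rows are blue in the columns outside Astragali Radix.

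WDR43, a WD-repeat protein of the small subunit processome, was called lower in all 15 groups, and in 11 of them in each fit without 1 library. At the Sibjeondaebo-tang medium dose its call was lost without replicate 2 or 3 of the vehicle or replicate 1 or 2 of that dose (highest adjusted p = 0.131). Its level in the 45 libraries was 61.4 CPM at the lowest, 67.2 at the median and 72.9 at the highest, against 80.5, 82.6 and 86.9 CPM in the vehicle. The changes ran from -0.42 at the Sagunja-tang high dose (edgeR adjusted p = 8.61e-06) to -0.24 at the Sibjeondaebo-tang high dose (adjusted p = 0.00859), and none of the 45 libraries reached the vehicle. NPM1 was called lower in 14 groups, with 1073 CPM at the lowest, 1297 at the median and 1397 at the highest library, against 1524, 1475 and 1487 CPM in the vehicle. NCL was also called lower in 14 groups, with 376, 426 and 481 CPM at the same points, against 504, 514 and 508 CPM. For both genes the 45 libraries lay below the vehicle, and the group that missed the call was the Sibjeondaebo-tang medium dose (adjusted p = 0.163 for NPM1 and 0.281 for NCL). The calls on NPM1 held in each fit without 1 library in 6 of the 14 groups, and those on NCL in 4.

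LYAR and NOLC1 were each called lower in 13 groups, and their calls held in each fit without 1 library in 5 and 2 of these. With WDR43, NPM1 and NCL, 5 of 45 members were thus called lower in 13 or more groups, against 3.35% of all genes tested (15 of 45 members and 8.02% without the libraries that stood apart). LYAR had 11.7 CPM at the lowest, 13.6 at the median and 15 at the highest library, against 16.7, 17.1 and 17.2 CPM in the vehicle. PES1, a large subunit factor, was called in 9 groups, UTP3 in 8 and RRS1 in 7, all lower, of which 1, 2 and 4 groups kept the call in each fit without 1 library. DDX21, GNL3, NOC4L, PES1, RRS1 and UBTF also lay below the vehicle in all 45 libraries, although UBTF was called in none of the 15 groups. With LYAR, NCL, NOLC1, NPM1 and WDR43 they make 11 of 45 members, against 6.01% of all genes tested with every one of these libraries below all 3 vehicle libraries.

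Against this direction stood UTP18, NOC3L, POLR1B and RRN3, which were above the vehicle in all 15 groups. UTP18 (ENSG00000011260) was called higher in 13 groups, in 10 of which the call held in each fit without 1 library, and its level was 45 CPM at the lowest, 52.6 at the median and 59.5 at the highest of the 45 libraries, against 40.3, 45.2 and 42.2 CPM in the vehicle. All but 1 of the 45 libraries lay above the vehicle. The changes ran from 0.16 at the Sibjeondaebo-tang low dose (edgeR adjusted p = 0.173) to 0.43 at its high dose (adjusted p = 8.76e-06). NOC3L was called higher in 7 groups, of which 1 kept the call in each fit without 1 library, and RRN3 in 1, while POLR1B changed by 0.14 to 0.23 on the log2 scale and was not called.

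**Figure D4:**
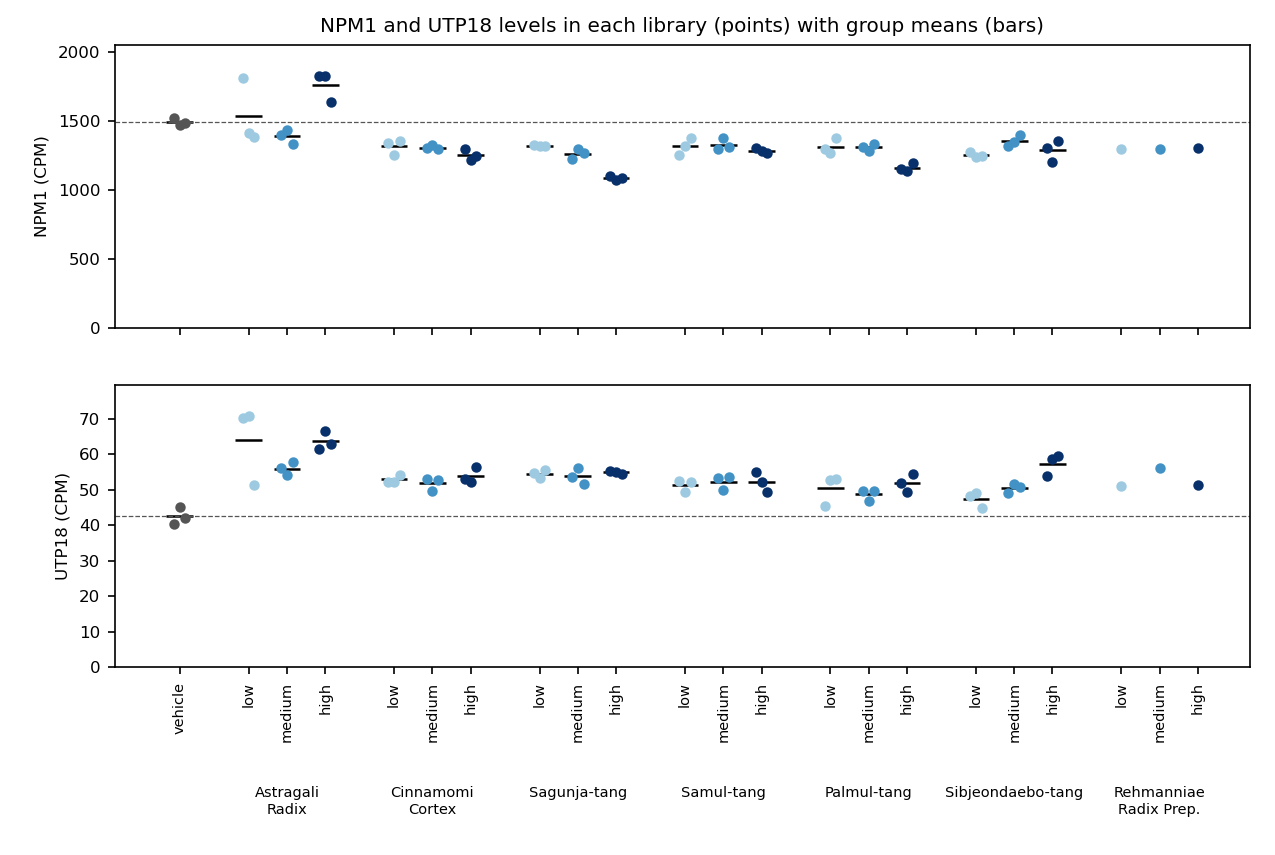
NPM1 (top) and UTP18 (bottom) in CPM in each library (points), with group means (bars) and the vehicle mean (dashed line), for the vehicle and each extract from low to high dose. Outside Astragali Radix, NPM1 lies below its 3 vehicle libraries in all 45 libraries of replicated groups and UTP18 lies above its own in 44.

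The Sagunja-tang high dose had the most calls outside Astragali Radix, 24 of 45, and the members' median log2 change was -0.22, against 0.02 over all genes tested. PES1 had 112, 117 and 119 CPM at the high dose, against 172, 169 and 170 CPM in the vehicle (log2 -0.55 ± 0.12, edgeR adjusted p = 0.000452). NPM1 had 1100, 1073 and 1086 CPM, against 1524, 1475 and 1487 CPM in the vehicle (log2 -0.46 ± 0.06, adjusted p = 6.61e-08). RRS1 had 35.3, 39.3 and 35.8 CPM, against 48.3, 47.9 and 47.3 CPM (log2 -0.38 ± 0.08, adjusted p = 0.000151). No treated library of the 3 genes reached the vehicle. Of the roles, 6 of 7 abundant or associated nucleolar proteins, 3 of 4 snoRNP genes and 6 of 12 large subunit factors were called lower. So were 5 of 12 processome genes and 1 of 6 RNA polymerase I genes, POLR1D (log2 -0.22, edgeR adjusted p = 0.0348). These counts stand against 11.6% of all genes called lower there. When the pair was left out, 7 of 7 nucleolar proteins, 3 of 4 snoRNP genes and 9 of 12 large subunit factors were lower, with 6 of 12 processome genes and 3 of 6 RNA polymerase I genes. Of all genes, 18.9% were then called lower and 39.2% in either direction. FBL had 98.4, 101 and 108 CPM, against 128, 131 and 126 CPM in the vehicle (log2 -0.33 ± 0.11, adjusted p = 0.0197). UTP18 was the single member called higher (log2 0.37 ± 0.07, adjusted p = 0.000108). Across the members the log2 change and transcript length had a Spearman correlation of 0.38, against 0.03 over all genes, so short members were lower. Removing the trends with length and GC content left 2 members higher and 26 lower, and the share of all genes called then is not given. Markers moved at this dose as well: of the 7 astrocyte markers that passed the filter, VIM (log2 -0.61), SOX9 (-0.39) and CD44 (-0.26) fell and none rose, and of 9 markers of other cell types PTPRC fell (log2 -0.34) and none rose. In the MYC network MAX fell (log2 -0.33), and MGA (0.45) and MYCL (1.05) rose. The part of these genes in the changes of the members was not tested.

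The dose comparisons within an extract do not use the vehicle. In Sagunja-tang, NPM1 and DKC1 were lower at the high than at the low dose, 2 of 45 members. Of all genes, 1.71% were called lower there and 3.78% in either direction. NPM1 had 1100, 1073 and 1086 CPM at the high dose, against 1329, 1320 and 1319 CPM at the low dose (log2 -0.28 ± 0.06, edgeR adjusted p = 0.00148). DKC1 had 134, 131 and 127 CPM, against 151, 154 and 147 CPM at the low dose (log2 -0.21 ± 0.05, adjusted p = 0.0164). In both genes the doses did not overlap. In all, 40 of 45 members had a negative log2 change, with a median of -0.09, against 0.003 over all genes tested. When the pair was left out, 15 were lower and 0 higher, among them DDX21, FBL, NOP56, NOP58 and NCL. Of all genes, 6.75% were then called lower and 6.3% higher (13.1% in either direction). Leaving out replicate 1 or 2 of the low dose, or replicate 3 of the high dose, left 1 call.

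In Sibjeondaebo-tang 7 of 45 members were called between the high and the low dose, all of them higher, against 21.3% of all genes called in either direction and 10.6% higher. UTP18 had 53.8, 58.8 and 59.5 CPM at the high dose, against 48.3, 49 and 45 CPM at the low dose (log2 0.28 ± 0.07, edgeR adjusted p = 0.0038). NIP7, a large subunit factor, had 59.8, 61.6 and 59.3 CPM, against 49.3, 53.1 and 47.4 CPM (log2 0.27 ± 0.07, adjusted p = 0.00565). UTP4 had 113, 102 and 111 CPM, against 94.1, 91.6 and 93.1 CPM at the low dose (log2 0.23 ± 0.07, adjusted p = 0.0125). MYC was among them with 67.6, 59.7 and 60.6 CPM at the high dose, against 53.1, 56.7 and 52.9 CPM at the low dose (log2 0.21 ± 0.06, adjusted p = 0.0145). The doses did not overlap in any of the 4 genes, and WDR12 (log2 0.19), PNO1 (0.25) and the U3 snoRNP protein RRP9 (0.27) made up the rest. The call on MYC was lost without replicate 1 of the high dose (log2 0.15, adjusted p = 0.126). It was also lost without replicate 1 or 3 of the low dose (adjusted p = 0.0529 and 0.0585). With all libraries it was lost with the length and GC correction (edgeR adjusted p = 0.086) and with no filter on low counts (adjusted p = 0.105). It held with upper quartile scaling (edgeR adjusted p = 0.0318), with only the compared groups fitted (edgeR adjusted p = 0.00786) and with DESeq2 (adjusted p = 0.00667). Transcript length and the log2 change had a Spearman correlation of -0.46 across the members, against -0.21 over all genes. With trends in length and GC content removed, 10 members were higher and 1 lower. Without the libraries that stood apart, 20 were higher and 3 lower, UTP20, NOP56 and UBTF being the 3. Of all genes, 20.7% were then called higher and 18.1% lower (38.7% in either direction). Upper quartile scaling left 4 higher and 1 lower. Shares of all genes called are not given for this scaling or for the removal of length and GC trends. Leaving out replicate 1 or 3 of the high dose left 2 or 3 calls, and leaving out replicate 1, 2 or 3 of the low dose left 3, 4 or 3.

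Palmul-tang had MYC, higher at the high dose, as its single call. Of all genes, 1.92% were called higher there and 3.68% in either direction. MYC had 63.8, 63.3 and 63 CPM at the high dose, against 53, 54.8 and 54.2 CPM at the low dose (log2 0.23 ± 0.06, edgeR adjusted p = 0.0216), with no overlap. That call was lost in 5 of the 6 fits that left out 1 library (all but replicate 2 of the low dose), where the change was 0.22 to 0.24. It was lost as well with the length and GC correction (edgeR adjusted p = 0.0635) and with no filter on low counts (adjusted p = 0.201). With all libraries it held with upper quartile scaling (edgeR adjusted p = 0.0231), with only the compared groups fitted (edgeR adjusted p = 0.000236) and with DESeq2 (adjusted p = 0.00476). With the libraries that stood apart left out MYC was higher and NPM1 lower, against 6.24% and 5.58% of all genes (11.8% in either direction). Cinnamomi Cortex and Samul-tang had 0 members called with edgeR and 0 with DESeq2, where 0.441% and 1.41% of all genes were called with edgeR. At an unadjusted p under 0.05 the counts with edgeR were 0 and 1. Leaving those libraries out they had 1 member higher and 1 lower (2.91% and 6.01% of all genes called).

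Astragali Radix itself had 9 members higher and 27 lower at the high than at the low dose, against 70% of all genes called, and 15 and 23 (65.5%) without the pair, when a single low-dose library is left. MYC was higher (log2 1.72, and 1.61 without the pair) and UTP20 lower (log2 -1.90, and -2.43 without the pair). UTP18, with a log2 change of -0.01 that was not called, was called higher (0.29) without the pair.

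**Figure D5:**
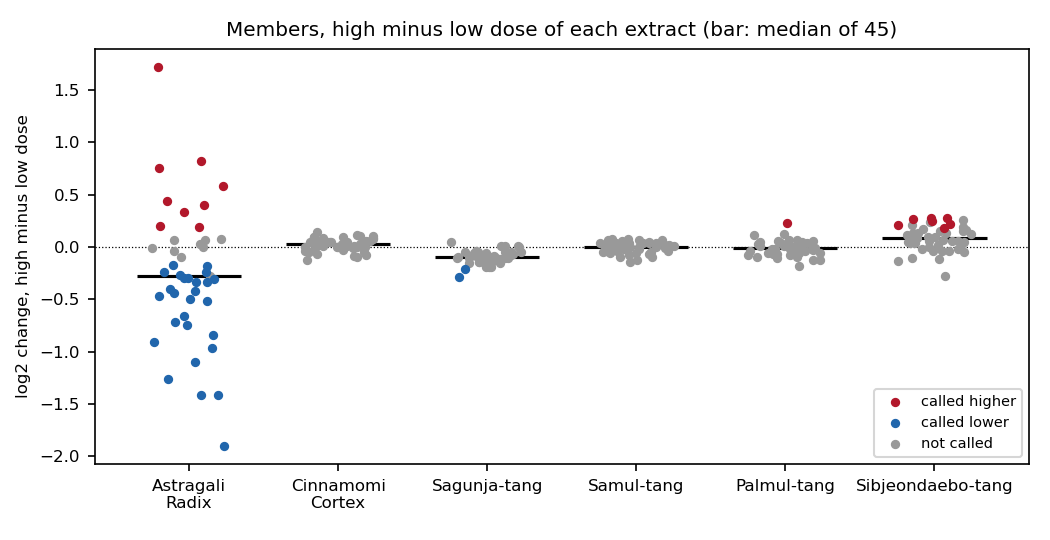
Log2 change of each of the 45 genes (points) at the high minus the low dose of each extract, with the median as a bar; red points were called higher, blue points lower and grey points were not called. Sibjeondaebo-tang has 7 red points and Sagunja-tang 2 blue points, and the wide spread in Astragali Radix includes the 2 low-dose libraries that stood apart.

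The high minus low changes were also set against each other between formulas that differ by whole herbs. The change in Sibjeondaebo-tang minus that in Palmul-tang had 0 members called with edgeR and with DESeq2, where 1.06% of all genes were called, and 10 members had an unadjusted p under 0.05 with either tool. FBL had the largest such difference at 0.33 ± 0.15 (SE, edgeR adjusted p = 0.306). The change in Sagunja-tang minus that in Samul-tang also had 0 called with both tools (1.23% of all genes), with 3 members under 0.05 unadjusted with edgeR and 4 with DESeq2. NPM1 had a difference of -0.25 ± 0.08 there (adjusted p = 0.177). Without the libraries that stood apart the first comparison had 14 members higher and 1 lower, against 8.07% and 7.16% of all genes (15.2% in either direction). The second had 0 higher and 4 lower, namely DKC1, NPM1, UTP20 and DDX21, against 2.89% and 3.48% of all genes (6.37% in either direction). MYC did not pass in either (log2 -0.02, adjusted p = 0.94, and -0.06, adjusted p = 0.961).

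Genes around the members were read from lists of the same pathway at the Astragali Radix high dose. Of 12 partners in the MYC network 10 passed the filter, 7 rose and 1 fell. MXD1, a MAX-binding repressor that competes with MYC, averaged 80.5 CPM at the high dose, against 10.9 CPM in the vehicle (log2 2.88 ± 0.11, edgeR adjusted p = 1.52e-27). MXI1, of the same family, averaged 42.6 CPM, against 11.6 CPM in the vehicle (log2 1.88 ± 0.10, adjusted p = 3.64e-22). MNT, another MAX-binding repressor, rose by 0.91 and MAX by 0.17 on the log2 scale (adjusted p = 9.67e-10 and 0.022). So MYC, MXD1, MXI1 and MNT were higher at the same dose. The MXD genes did not move together, since MXD3 was lower (log2 -1.27 ± 0.12) and MXD4 was not called (log2 -0.05). MYCL averaged 3.61 CPM, against 0.469 CPM in the vehicle (log2 2.94 ± 0.24).

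Other known MYC targets had 14 of 26 higher and 8 lower, led by the chaperones FKBP4 (log2 1.84) and HSPD1 (log2 1.48) and, downward, by CAD, which starts pyrimidine synthesis (log2 -1.33). A further 15 RNA polymerase I factors had 4 higher and 8 lower with a median log2 change of -0.24. POLR1G, a subunit of the polymerase, averaged 11.6 CPM at the high dose, against 37.5 CPM in the vehicle (log2 -1.70 ± 0.09, adjusted p = 2.54e-22), and TAF1A rose (log2 1.61 ± 0.12). Of 34 further large subunit factors, 7 rose and 16 fell, with a median of -0.22. RSL24D1 rose (log2 1.87) against that direction. Among 32 further small subunit factors 11 rose and 12 fell, RCL1 upward (log2 1.04) and BMS1 downward (log2 -1.13). A further 11 snoRNP factors had 6 higher and 2 lower, and 22 genes of RNA polymerase III and its factors had 10 higher and 10 lower, with BRF2 (log2 1.78) and the polymerase III repressor MAF1 (log2 1.02) among those that rose. The median over all genes tested was -0.06, with 32.6% of them called higher and 35.6% lower. Of 14 markers of other cell types 9 passed the filter, 2 rose and 3 fell. COL1A1 (log2 -1.63), COL1A2 (log2 -0.93) and PTPRC fell, and DCN (log2 0.51) was among the 2 that rose. Of the 5 that failed the filter, AIF1, EPCAM, CDH1 and MOG did not exceed 0.2 CPM and VWF 0.433 CPM in any library. Of 7 astrocyte markers that passed the filter, GJA1 (log2 0.50) and VIM (0.46) rose and SLC1A3 (-0.50) and NES (-1.21) fell. Without the libraries that stood apart the counts higher and lower were 7 and 1 in the MYC network, 15 and 10 for MYC targets and 4 and 10 for RNA polymerase I factors. They were 9 and 20 for large subunit, 12 and 15 for small subunit, 7 and 2 for snoRNP and 10 and 10 for RNA polymerase III genes, with 2 and 3 for the markers of other cell types and 2 and 2 for those of astrocytes. The part of the markers in the changes of the members was not tested.

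Rehmanniae Radix Preparata had a single library at each dose and so allows no test. Members below the vehicle numbered 37, 38 and 32 of 45 at the low, medium and high dose, against 48.1%, 47.3% and 47.1% of all genes below it. The median log2 differences were -0.20, -0.18 and -0.11. MYC had 51.4, 49.1 and 49.7 CPM from low to high dose, against 61, 55.7 and 62.1 CPM in the vehicle. NPM1 had 1297, 1299 and 1308 CPM, against 1524, 1475 and 1487 CPM. UTP18 had 51, 56.3 and 51.3 CPM, against 40.3, 45.2 and 42.2 CPM in the vehicle. In these 3 genes each single library lay outside the range of the vehicle, on the side seen in most groups of the other extracts.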

How the data were processed

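RNA was sequenced from SW1783 cells after 24 h. Per the submitters' processing notes, RSEM 1.3.3 and STAR 2.7.3a were used with hg38, besides Trim Galore 0.6.5 and FastQC 0.11.9. The values are expected counts per gene as the authors deposited them, and 90.8% are whole numbers. The table has 279 columns, of which 219 match no sample here and were not used. Expected counts were rounded, and edgeR 4.0.16 (R 4.3.3) was run with TMM scaling, filterByExpr and the quasi-likelihood F test, with 1 mean for each of 19 groups of 3 libraries. A gene was called at a Benjamini-Hochberg adjusted p under 0.05 over 17676 genes, with no minimum fold. CPM is TMM-scaled. Counting error covers only part of the spread between libraries. The members and lists were chosen with earlier results of these data known, with single-library values mainly for up to 4 called members per role with the largest change at the Astragali Radix high dose and the 4 called most often outside it, and up to 4 genes of each other list by smallest adjusted p. Alternatives were DESeq2 1.42.0, other scalings, no filter, a length and GC correction, a replicate block and left-out libraries. The share of all genes called also changes with these settings. Where it is not printed, a larger or smaller count is no result about the members. On data simulated for the Sagunja-tang high dose against the vehicle (17676 genes), 18, 31, 35 and 47 of 50 genes changed by 1.25, 1.5, 2 and 4 fold were recovered, and 7 of 17476 unchanged genes were called. Only these genes were changed there, in a single group, whereas 22.7% of all genes were called in the data. The simulated rates therefore need not hold for the data. Replicates differed by more than sampling noise (lowest chi-square per degree of freedom 2.13 over 57 pairs).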

Additional observations from a re-analysis of the deposited data

How the results depend on the processing

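Of the log2 changes of the members named by the rule under the alternatives, 2959 kept direction and side of the threshold, 312 lost and 119 gained a call, and 12 reversed; all 12 were in the Astragali Radix low dose against the vehicle, and the cause was not tested. Without replicates 1 and 2 of that dose NCL was -0.24, UTP20 0.15, RRP12 -0.10, RRS1 -0.094, NOC2L -0.16, UBTF -0.22 and HEATR1 0.17. Leaving out 1 library at a time, RRP12 ranged over -0.163 to 0.478, NOC2L over -0.054 to 0.765, UBTF over -0.235 to 0.491, MYBBP1A over -0.403 to 0.341 and PNO1 over -0.212 to 0.171, with the reversed value of each found without its replicate 2. The counts of members called that moved by over 1.5 times follow, for each dose against the vehicle unless 2 doses or formulas are named. The share of all genes called also moved with the setting. For example, at the Palmul-tang low dose it was 9.84% in the main fit and 25.9% without Astragali Radix low replicates 1 and 2. Shares for the other settings are not given here, so a larger count alone is no result about the members. With DESeq2 the count was 12 and 11 at the Cinnamomi Cortex low and high doses and 14 at the Sagunja-tang medium dose. It was 16 at the Palmul-tang low dose and 14 and 5 at the Sibjeondaebo-tang low and medium doses. For high against low dose it was 5 in Sagunja-tang and 2 in Palmul-tang. With the length and GC correction the count was 10 at the Astragali Radix medium dose, 11 and 15 at the Cinnamomi Cortex low and high doses and 14 at the Sagunja-tang medium dose. It was 14 and 17 at the Samul-tang medium and high doses, 18, 16 and 22 at the Palmul-tang low, medium and high doses and 19, 10 and 13 at the Sibjeondaebo-tang low, medium and high doses. Between the high and low dose it was 5 in Sagunja-tang and 11 in Sibjeondaebo-tang. For the difference between formulas it was 2 for Sibjeondaebo-tang minus Palmul-tang. With no filter on low counts the count was 7 and 4 at the Cinnamomi Cortex medium and high doses, 6 at the Sagunja-tang low dose and 5 and 5 at the Samul-tang low and medium doses. It was 5 and 6 at the Palmul-tang low and medium doses and 0 and 3 at the Sibjeondaebo-tang medium and high doses. For high against low dose it was 1 in Sagunja-tang and 0 in Palmul-tang. With only the compared groups fitted the count was 0 and 22 at the Astragali Radix low and medium doses, 28, 29 and 30 at the Cinnamomi Cortex low, medium and high doses and 32 and 29 at the Sagunja-tang low and medium doses. It was 26, 28 and 27 at the Samul-tang low, medium and high doses, 30, 31 and 36 at the Palmul-tang low, medium and high doses and 33, 17 and 18 at the Sibjeondaebo-tang low, medium and high doses. Between the high and low dose it was 15 in Astragali Radix, 1 in Cinnamomi Cortex, 14 in Sagunja-tang, 4 in Palmul-tang and 20 in Sibjeondaebo-tang. For the difference between formulas it was 12 for Sibjeondaebo-tang minus Palmul-tang and 4 for Sagunja-tang minus Samul-tang. With the replicate block and the length and GC correction the count was 10 at the Astragali Radix medium dose, 12 and 16 at the Cinnamomi Cortex low and high doses and 14 at the Sagunja-tang medium dose. It was 15 and 17 at the Samul-tang medium and high doses, 19, 18 and 23 at the Palmul-tang low, medium and high doses and 20, 10 and 13 at the Sibjeondaebo-tang low, medium and high doses. For high against low dose it was 5 in Sagunja-tang and 12 in Sibjeondaebo-tang. For the difference between formulas it was 2 for Sibjeondaebo-tang minus Palmul-tang. With upper quartile scaling the count was 4 at the Samul-tang medium dose and 5 at the Palmul-tang low dose. Without Astragali Radix low replicates 1 and 2 the count was 12 and 21 at the Astragali Radix low and medium doses, 25, 26 and 24 at the Cinnamomi Cortex low, medium and high doses and 27 and 28 at the Sagunja-tang low and medium doses. It was 24, 28 and 26 at the Samul-tang low, medium and high doses, 28, 29 and 32 at the Palmul-tang low, medium and high doses and 31, 15 and 19 at the Sibjeondaebo-tang low, medium and high doses. Between the high and low dose it was 1 in Cinnamomi Cortex, 15 in Sagunja-tang, 1 in Samul-tang, 2 in Palmul-tang and 23 in Sibjeondaebo-tang. For the difference between formulas it was 15 for Sibjeondaebo-tang minus Palmul-tang and 4 for Sagunja-tang minus Samul-tang. Leaving out 1 library at a time, the count was 17 to 31, 2 to 4 and 29 to 32 at the Astragali Radix low, medium and high doses, 3 to 4, 2 to 7 and 3 to 6 at the Cinnamomi Cortex low, medium and high doses and 4 to 6, 4 to 8 and 17 to 20 at the Sagunja-tang low, medium and high doses. It was 4 to 6, 3 to 5 and 7 to 10 at the Samul-tang low, medium and high doses, 2 to 4, 3 to 7 and 6 to 11 at the Palmul-tang low, medium and high doses and 4 to 10, 0 to 2 and 4 to 7 at the Sibjeondaebo-tang low, medium and high doses. For high against low dose it was 34 to 38 in Astragali Radix, 0 in Cinnamomi Cortex, 1 to 2 in Sagunja-tang, 0 in Samul-tang, 0 to 1 in Palmul-tang and 2 to 8 in Sibjeondaebo-tang. For the difference between formulas it was 0 for Sibjeondaebo-tang minus Palmul-tang and 0 for Sagunja-tang minus Samul-tang. Leaving out a library moved the count by over 1.5 times for any of the 6 libraries at the Cinnamomi Cortex low and medium, Sagunja-tang low, Samul-tang low and medium and Palmul-tang low doses. It did so for Vehicle replicates 1 and 3 and high replicates 1 and 3 at the Cinnamomi Cortex high dose, for replicate 1 at the Sagunja-tang medium dose and the Sibjeondaebo-tang low dose, and for Vehicle replicates 1 and 2 and high replicates 1 and 2 at the Palmul-tang high dose. The same held for all Vehicle replicates and replicates 1 and 3 at the Palmul-tang medium dose, for all Vehicle replicates and replicates 1 and 2 at the Sibjeondaebo-tang medium dose, and for Vehicle replicates 2 and 3 and high replicates 2 and 3 at its high dose. Libraries share only replicate numbers and were not treated as pairs, since the correlations of the deviations of same-numbered libraries were not all over 0.1 (median 0.009, lowest -0.142, against a median of -0.005 for other numbers). Even so, 38 of 57 libraries correlated best with their own number, which is a hint from the data and not from the design. With the replicate block alone the Astragali Radix high dose had 10 members higher and 21 lower and the Sagunja-tang high dose 1 and 24. Small changes at members with few counts are limited by depth and by 3 libraries a group.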
